A study of Mus musculus with 4 samples.

Results

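The subject is the integrin and laminin genes on expression arrays of mouse neural stem cells. Members were the non-control probes whose gene name on the array was an integrin alpha chain (Itga), a numbered integrin beta chain (Itgb) or a laminin chain (Lama, Lamb, Lamc), with 1 probe per gene, the one with the highest mean log2 signal over the 4 arrays. This rule gave 37 genes, of 22328 genes with a named probe: 18 integrin alpha, 8 integrin beta and 11 laminin genes, together covered by 51 probes. The 4 groups had 1 array each. NSCL61-Ceacam1sh was the NSCL61 line with a hairpin labelled as directed at Ceacam1, NSCL61 was that line itself, a glioma-initiating line made from p53-null neural stem cells, NSC-Ceacam1L was neural stem cells labelled as carrying Ceacam1L, the long-tailed form of the adhesion receptor Ceacam1, and NSC was the neural stem cells alone. All 4 groups were p53-/-, labelled as brain of E14.5 embryos, grown without serum, and labelled as transfected and selected with hygromycin for 1 week. The labels do not say whether NSC and NSCL61 carried an empty vector, whether a line was 1 clone or a pool, or how many embryos gave the cells. With 1 array per group there was no replicate, so no difference below was tested, and the 4 arrays lay at different positions of 1 slide, which means that group cannot be told apart from position. The series sets NSC-Ceacam1L against NSC and NSCL61-Ceacam1sh against NSCL61 to find genes downstream of Ceacam1, and NSCL61 against NSC is the comparison of the 2 starting populations. The NSC and NSCL61 arrays each serve in a pair of these comparisons.

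Integrins are receptors made of an alpha and a beta chain that tie the cytoskeleton to the matrix outside the cell, and the alpha chain largely sets which ligand is bound. Laminins are cross-shaped trimers of an alpha, a beta and a gamma chain and are the main adhesive proteins of basement membranes. In the embryonic brain, radial glial and neural stem cells contact laminin through beta1 integrins, chiefly with alpha6 and alpha3, and laminin is a common coating on which such cells are grown. Beta8 pairs with alphav and activates latent TGF-beta, and beta3 pairs with alphav or with alpha2b, the platelet chain.

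Which piece of the transcript was read matters for several results, so the probes behind them are given here, each 60 bases long with coordinates on mm9 from the array design. Of the probes shown whole, each spans an exon junction, that is, its genomic interval is longer than the probe. Sequences are 5′ to 3′ in lower case.
Itga1 probe, chr13:115756765-115758419, minus strand: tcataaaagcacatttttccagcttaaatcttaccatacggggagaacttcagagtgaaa
Itga2b probe, chr11:102319453-102319661, minus strand: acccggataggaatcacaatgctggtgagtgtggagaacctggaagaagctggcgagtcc
Itgb1 probe, chr8:131250081-131255976, plus strand: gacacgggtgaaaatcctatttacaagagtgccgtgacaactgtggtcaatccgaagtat
Itgb6 probe, chr2:60438632-60443247, minus strand: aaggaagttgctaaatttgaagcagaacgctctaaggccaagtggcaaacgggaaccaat
For other members with wide differences, the first 30 bases of the probe are shown.
Itga3 probe, chr11:94906334-94906393, minus strand: aagagcaatgaactagaaagcaggtcgccg
Itgb3 probe, chr11:104531672-104531731, plus strand: ccacagcaacatcagagtctttgtccattt
Itgb8 probe, chr12:120401278-120401337, minus strand: atgtagatcatctgggaaagcactgattac
Lama1 probe, chr17:68171924-68171983, plus strand: atgttgaactaaagccacacggacaacaga
Lama4 probe, chr10:38825794-38825853, plus strand: ttggatgtagactcagaagtgaaccatgta
Itgam had 3 probes, and the one the rule chose opens with a CA repeat, set in capitals.
Itgam chosen probe, chr7:135261755-135261814, plus strand: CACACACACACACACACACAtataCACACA
Itgam second probe, chr7:135260275-135260334, plus strand: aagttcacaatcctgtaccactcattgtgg
Itgam upstream probe, chr7:135212140-135212199, plus strand: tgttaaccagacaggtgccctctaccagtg
The unbroken repeat of 2 bases in the chosen Itgam probe ran for 20 bases. Of the 51 member probes it was the 1 with such a repeat of at least 12 bases, against 0.436% of all 55681 probes. Whether the repeat bears on its signal was not tested.

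A level below is the log2 processed signal of a probe minus the log2 of that array's 75th percentile, and a difference is one level minus another, followed by ± the scanner software's modelled error, which covers a single hybridisation and not the spread between cultures. A gene was evaluated in a comparison where its probe was well above background on either array. It was called higher or lower where this held on the brighter array and the 2 levels differed by 2-fold or more. Where the dimmer array gave no signal well above background, the fold is a lower bound, written as "at least". It is set against the lowest signal well above background on that array, or against the gene's own level there if that was higher. The lowest such levels were -4.75 on NSCL61-Ceacam1sh, -4.65 on NSCL61, -4.85 on NSC-Ceacam1L and -4.27 on NSC. The share of all genes above background was 62.7% on NSCL61-Ceacam1sh, 65.3% on NSCL61, 67.2% on NSC-Ceacam1L and 63.2% on NSC. Ceacam1 itself had no probe named for it here, so the array data give no check of the overexpression or of the hairpin.

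Of the 37 members, 28 were above background on NSCL61-Ceacam1sh, 25 on NSCL61, 31 on NSC-Ceacam1L and 23 on NSC. On all 4 arrays 18 were above background, 8 were so on 3 arrays, 3 on 2 arrays and 5 on 1 array. Those seen on 1 array were Itga2 and Itga11 on NSC-Ceacam1L, Itga8 and Itgae on NSCL61-Ceacam1sh, and Itgb6 on NSC. The remaining 3, Itgad, Itgax and Lamb3, were above background on none. Itgad and Itgax encode leukocyte integrin chains, and Lamb3 the beta chain of laminin-332 of epithelial basement membranes.

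**Figure D1:**
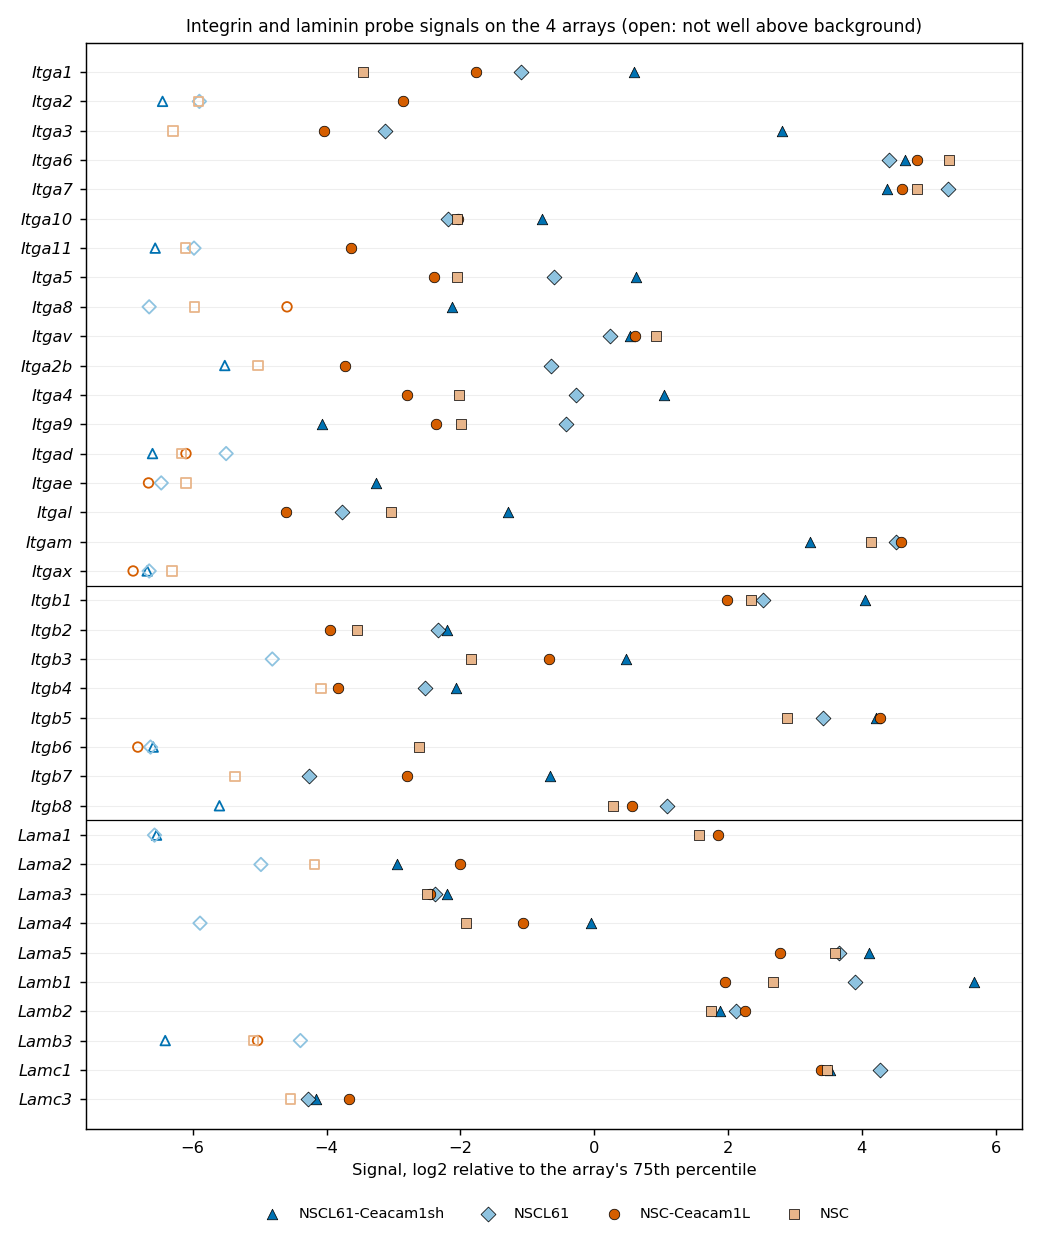
Level of each member shown (log2 signal relative to the array's 75th percentile, x axis) on NSCL61-Ceacam1sh, NSCL61, NSC-Ceacam1L and NSC, with 1 array per group. Open symbols were not well above background, and symbols are to be compared within a row only, since probes differ in brightness: the 4 Itga6 symbols lie between 4.41 and 5.30, whereas the Itga3 symbols run up to 2.81 on NSCL61-Ceacam1sh.

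NSC-Ceacam1L was set against NSC to ask which members differ where the cells carry Ceacam1L. Of 32 members evaluated, 10 were called higher (31.2%) and 2 lower (6.25%), against 10.5% higher and 6.05% lower among the 15311 genes evaluated. Scaled to spike-in controls in place of the 75th percentile, these shares over all genes were 15.6% higher and 3.14% lower (12 and 2 members). With cyclic loess they were 13.1% and 3.99% (11 and 2 members). The members higher included the collagen receptor chains Itga1, Itga2 and Itga11, the laminin receptor chain Itga3, the platelet chain Itga2b, the beta chains Itgb3, Itgb5 and Itgb7, and the laminin chain Lama2. The 2 lower were Itgb6, an epithelial partner of alphav, and Itgal, a leukocyte chain. Of the 10 higher, 7 were above background on the NSC-Ceacam1L array and not on NSC, so they passed the filter through the array where they were high, and the count is given as a description only. The 3 measured on both arrays were Itga1, Itgb3 and Itgb5. With normexp background correction, which lifts dim signals by a fixed offset, 1 member was called higher and 1 lower. Over all genes the normexp shares were 4.84% higher and 3.42% lower.

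Itgb5, the beta chain that pairs with alphav to bind vitronectin, had a level of 4.27 in NSC-Ceacam1L and 2.88 in NSC, a difference of 1.39 ± 0.20. Itga1 had -1.76 in NSC-Ceacam1L and -3.45 in NSC, a difference of 1.69 ± 0.27. Its second probe, above background in NSC-Ceacam1L and not in NSC, gave 0.68, short of 2-fold. Itgb3 had -0.68 in NSC-Ceacam1L and -1.84 in NSC, a difference of 1.16 ± 0.21, whereas its second probe was not above background on either array. Lama2, the alpha chain of the laminin of muscle and brain vessels, was at least 4.53-fold higher in NSC-Ceacam1L, and both of its probes were above background in NSC-Ceacam1L and neither in NSC. Itgb6 was at least 4.71-fold lower in NSC-Ceacam1L by the probe shown above, but its second probe was above background on none of the 4 arrays, so this call rests on 1 probe on 1 array. Itgal had -4.60 in NSC-Ceacam1L and -3.04 in NSC, a difference of -1.56 ± 0.37, whereas a second probe gave -0.37 and the remaining one was above background on neither array.

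NSCL61-Ceacam1sh was set against NSCL61 to ask which members differ where the line carries the hairpin. Of 30 members evaluated, 14 were called higher (46.7%) and 4 lower (13.3%), against 23.4% higher and 24.3% lower among the 15612 genes evaluated. Scaled to the median of each array, those shares over all genes were 33.4% higher and 18.4% lower, and the member counts were 15 and 3. Scaled to spike-in controls, they were 34.3% and 18.1%, again with 15 and 3 members. The median member difference was 0.63, beside 0.01 over all genes evaluated, and among genes above background on all 4 arrays it was 0.38, beside 0.06. The higher members included Itga1, Itga3, Itga4, Itga5 and Itga8, all partners of beta1, together with Itgb1 itself, and the laminin chains Lama2, Lama4 and Lamb1. Other partners of beta1 were not higher: Itga9 was lower (-3.64), and Itga6 (0.23) and Itgav (0.31) stayed within 2-fold. The 4 lower members were Itgb8, Itga2b, Itga9 and Itgam. Of the 14 higher members 9 were above background on both arrays, as were 2 of the 4 lower, Itga9 and Itgam.

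Itga3, a laminin receptor chain, had the widest difference among members measured on both arrays, with a level of 2.81 in NSCL61-Ceacam1sh and -3.13 in NSCL61, a difference of 5.95 ± 0.24. Itgb8 lay in the opposite direction, at -5.60 and not above background in NSCL61-Ceacam1sh and at 1.09 in NSCL61, which makes it at least 57.1-fold lower. Itgb3 was at least 34.9-fold higher in NSCL61-Ceacam1sh. Lama4, the alpha chain of vascular and mesenchymal laminins, was higher there by at least 24.2-fold. Both Itgb3 probes were above background in NSCL61-Ceacam1sh and neither in NSCL61. The difference of Itgb1, the common beta chain, was 1.53 ± 0.20 by the probe shown and 1.01 by its second probe. Lamb1, the beta chain of most embryonic laminins, had 5.68 in NSCL61-Ceacam1sh and 3.90 in NSCL61, a difference of 1.78 ± 0.20.

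NSCL61 was set against NSC as the tumour-forming line against the stem cells. Of 29 members evaluated, 11 were called higher (37.9%) and 4 lower (13.8%), against 14.4% higher and 14.0% lower among the 15296 genes evaluated. Scaled to spike-in controls, the shares over all genes were 11.2% higher and 18.2% lower, and the member counts were 8 and 5. Among the higher members, Itga1, Itga4, Itga5, Itga9, Itgb2 and Lamb1 were above background on both arrays. The others, among them Itga2b, Itga3, Itgb4 and Itgb7, were so on NSCL61 only and passed the filter through that array. The Itga3 bound was at least 2.2-fold and the Itgb7 bound at least 1.01-fold. The 4 lower members, Itgb3, Itgb6, Lama1 and Lama4, were all above background on NSC and not on NSCL61.

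Laminin alpha chains differed widely in this comparison. Lama1, the alpha chain of laminin-111 of the early embryo and the brain surface, had -6.57 in NSCL61, not above background, and 1.56 in NSC, and so was at least 74.2-fold lower in NSCL61. Lama4 had -5.89 in NSCL61, not above background, and -1.91 in NSC, and so was lower by at least 6.69-fold in NSCL61. Lama3, an alpha chain of epithelial laminins, differed by 0.12 ± 0.24 between NSCL61 and NSC by the chosen probe. Its second probe was above background on NSC-Ceacam1L only. In NSC-Ceacam1L minus NSC the 2 probes disagreed, with 0.05 for the chosen one and 1.96 for the second, and their mean was 1.01.

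**Figure D2:**
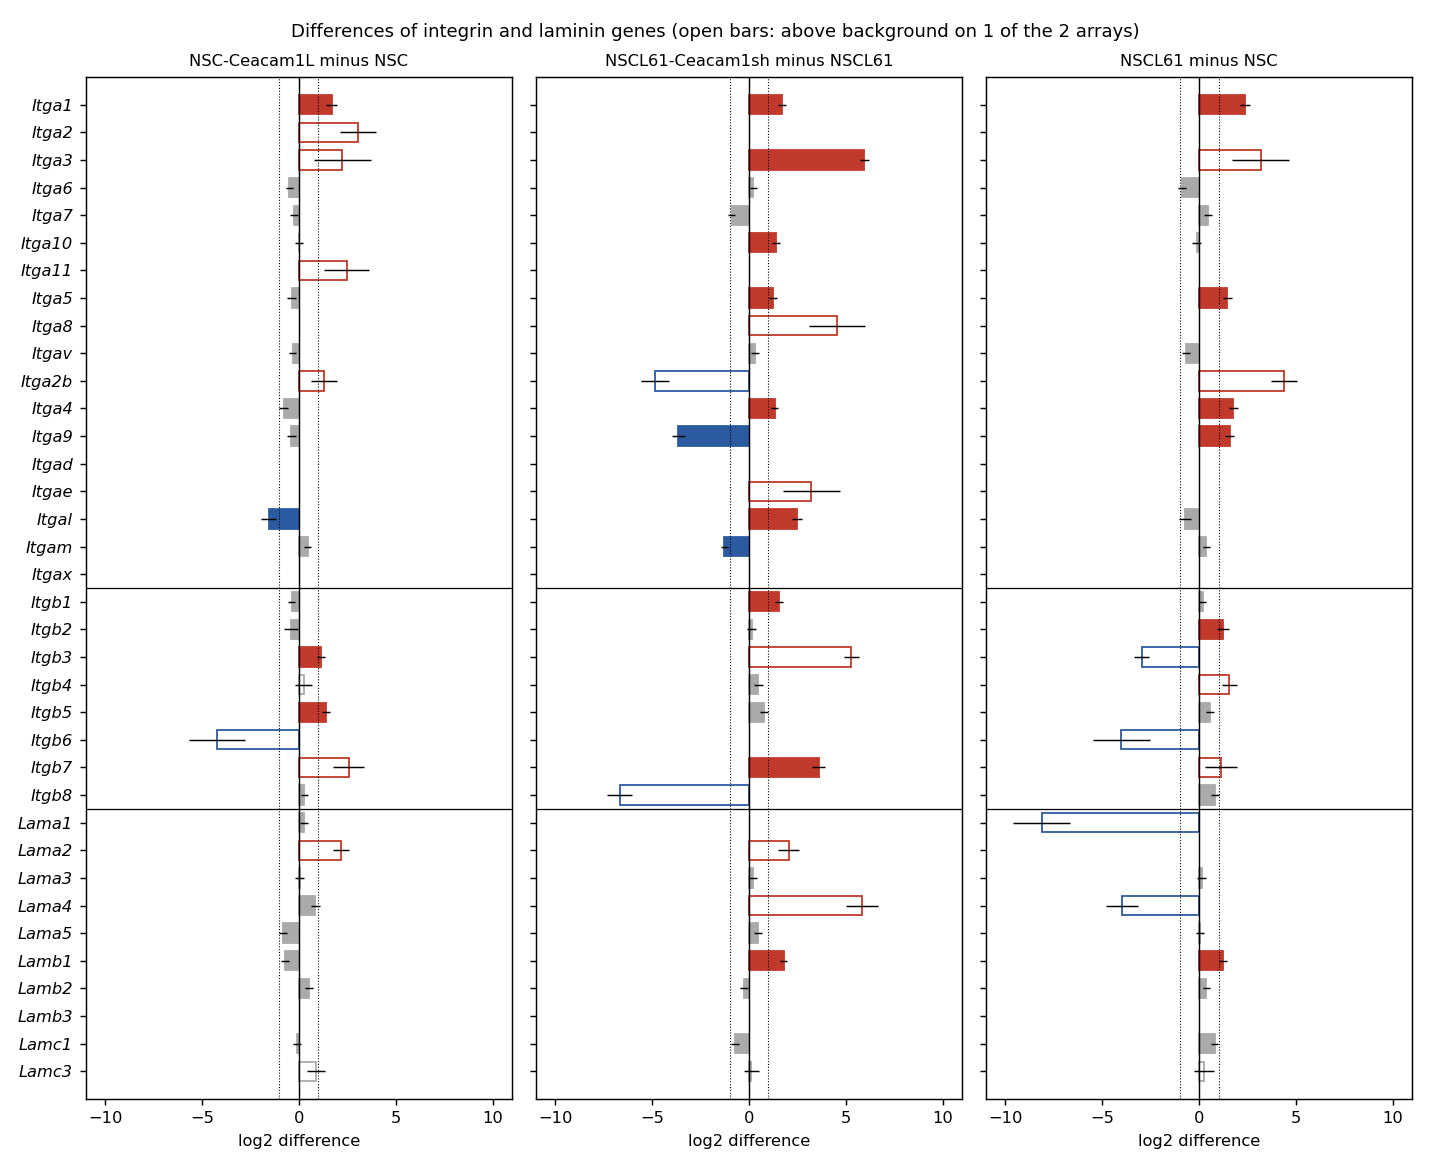
Difference (log2, x axis) of each member shown in the 3 comparisons, as bars with the scanner software's modelled error. Filled bars were above background on both arrays and open bars on 1, red bars were called higher, blue lower and grey neither, dotted lines mark 2-fold, and members without a bar were not evaluated. The widest filled bar, Itga3 with the hairpin, reaches 5.95, and open bars are set against a signal not above background.

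The comparisons of NSC-Ceacam1L with NSC and of NSCL61-Ceacam1sh with NSCL61 share no array. Of 28 members evaluated in both, 5 were called in the same direction (17.9%), against 3.27% of 14342 genes, and 2 in opposite directions (7.14%), against 6.51%. Those in the same direction, each higher both times, were Itga1, Itga3, Itgb3, Itgb7 and Lama2. Of these, only Itga1 was above background on all 4 arrays, with 1.69 in both comparisons. Its second probe gave 0.68 with Ceacam1L and 0.72 with the hairpin. Itga3, Itgb7 and Lama2 were above background on NSC-Ceacam1L and not on NSC. They passed the filter through the array where they were high. The Itga3 bound there was at least 1.18-fold. With normexp, all 5 fell short of 2-fold in NSC-Ceacam1L minus NSC, from 0.28 for Itga3 to 0.92 for Itga1. Those in opposite directions were Itga2b, higher in the Ceacam1L culture but lower in the hairpin culture, and Itgal, for which the reverse was seen. Itga2b was not above background on NSC, and its bound with Ceacam1L was at least 1.46-fold. With normexp, both fell short of 2-fold in NSC-Ceacam1L minus NSC, with 0.14 for Itga2b and -0.73 for Itgal.

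Among the alpha chains that bind laminin or collagen, those measured on all 4 arrays were Itga1, Itga6, Itga7 and Itga10. Itga6, the laminin receptor chain that marks neural stem cells, had 4.64 in NSCL61-Ceacam1sh, 4.41 in NSCL61, 4.82 in NSC-Ceacam1L and 5.30 in NSC, and was called in no comparison. Its second probe gave 0.83 for NSCL61-Ceacam1sh minus NSCL61, -0.64 for NSCL61 minus NSC and 0.31 for NSC-Ceacam1L minus NSC, where the chosen probe gave 0.23, -0.89 and -0.48. Itga7, another laminin receptor chain, had 4.38 in NSCL61-Ceacam1sh, 5.28 in NSCL61, 4.60 in NSC-Ceacam1L and 4.83 in NSC, also short of 2-fold throughout. The 4 values of each of these laminin receptor chains thus lay within 1 log2 unit of one another, in contrast to those of Itga3.

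Itga3 had 2.81 in NSCL61-Ceacam1sh, -3.13 in NSCL61, -4.03 in NSC-Ceacam1L and -6.29 in NSC, where it was not above background. Itga1, a collagen and laminin receptor chain, had 0.60 in NSCL61-Ceacam1sh, -1.10 in NSCL61, -1.76 in NSC-Ceacam1L and -3.45 in NSC. For both genes the order of the arrays was the same, with NSCL61-Ceacam1sh at the top and NSC at the bottom. Itga10, a collagen receptor chain of cartilage, had -0.78 in NSCL61-Ceacam1sh against -2.19 in NSCL61, -2.03 in NSC-Ceacam1L and -2.05 in NSC. Its second probe gave 1.46 for NSCL61-Ceacam1sh minus NSCL61 beside 1.41 for the chosen one. These probes overlap (chr3:96468383-96468442 and chr3:96468377-96468436), so the second is not a separate check. Itga2, a collagen receptor chain, was at least 2.65-fold higher in NSC-Ceacam1L than in NSC. For Itga11, another such chain, the bound was at least 1.55-fold, and neither was above background on the other arrays.

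Among the alpha chains that bind the RGD motif, Itgav stayed within 2-fold in all 3 comparisons and Itga5, Itga8 and Itga2b did not. Itgav, the chain shared by beta1, beta3, beta5, beta6 and beta8, had 0.54 in NSCL61-Ceacam1sh, 0.24 in NSCL61, 0.61 in NSC-Ceacam1L and 0.93 in NSC. Itga5, the fibronectin receptor chain, had 0.63 in NSCL61-Ceacam1sh, -0.60 in NSCL61, -2.40 in NSC-Ceacam1L and -2.05 in NSC. Its differences were 1.23 ± 0.21 with the hairpin and 1.45 ± 0.22 in NSCL61 minus NSC. Itga8, a receptor chain for nephronectin, was above background in NSCL61-Ceacam1sh only, at -2.12, and was at least 5.75-fold higher there than in NSCL61.

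Itga2b, the platelet chain whose known partner is beta3, had -0.65 in NSCL61 and -3.73 in NSC-Ceacam1L, and was not above background in NSCL61-Ceacam1sh (-5.52) or NSC (-5.02). It was at least 17.2-fold lower in NSCL61-Ceacam1sh than in NSCL61, and at least 12.3-fold higher in NSCL61 than in NSC. Itgb3 had 0.48 in NSCL61-Ceacam1sh, -4.81 in NSCL61, -0.68 in NSC-Ceacam1L and -1.84 in NSC, and was not above background in NSCL61. The array with the highest Itga2b level was therefore the 1 array on which Itgb3 was not above background. Of 6 other platelet and megakaryocyte markers, 1 (Gp1bb) was above background on each array, with a summed signal of 0.205 to 0.369 times the 75th percentile.

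Itga4 and Itga9 pair with beta1 and bind fibronectin, VCAM1, tenascin and osteopontin. Both were higher in NSCL61 than in NSC, by 1.76 ± 0.22 and 1.57 ± 0.22. With the hairpin they went opposite ways. Itga4 had 1.05 in NSCL61-Ceacam1sh and -0.27 in NSCL61, a difference of 1.32 ± 0.20, although its second probe was above background on no array. Itga9 had -4.07 in NSCL61-Ceacam1sh and -0.42 in NSCL61, a difference of -3.64 ± 0.34.

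The leukocyte alpha chains gave no common direction. Itgal, which pairs with beta2 on lymphocytes, had -1.29 in NSCL61-Ceacam1sh and -3.77 in NSCL61, a difference of 2.48 ± 0.27, whereas a second probe gave 0.38. The remaining probe was above background in NSCL61-Ceacam1sh and not in NSCL61. Itgae, which pairs with beta7 on lymphocytes of epithelia, was at least 2.61-fold higher in NSCL61-Ceacam1sh than in NSCL61. Itgam, the alphaM chain of microglia and neutrophils, had 3.23 in NSCL61-Ceacam1sh, 4.51 in NSCL61, 4.58 in NSC-Ceacam1L and 4.14 in NSC by the probe with the CA repeat. Its other 2 probes had -3.88 and -4.02 in NSCL61-Ceacam1sh, and -2.81 and -3.90 in NSCL61. The 3 probes thus gave -1.27, -1.07 and -0.12 for this difference. Of 12 markers of microglia and leukocytes, 4 were above background on NSCL61-Ceacam1sh, 5 on NSCL61, 4 on NSC-Ceacam1L and 4 on NSC. Csf1r, Cd68, Fcer1g and Coro1a were so on every array and Cx3cr1 on NSCL61 only. Ptprc, Aif1, P2ry12, Tyrobp, Spi1, Laptm5 and Cd52 were above background on none.

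Among the beta chains, Itgb1 had 4.05 in NSCL61-Ceacam1sh, 2.52 in NSCL61, 1.98 in NSC-Ceacam1L and 2.35 in NSC, so that only the hairpin array stood apart by 2-fold. Itgb5 had 4.21 in NSCL61-Ceacam1sh, 3.42 in NSCL61, 4.27 in NSC-Ceacam1L and 2.88 in NSC. Itgb8 was not above background in NSCL61-Ceacam1sh (-5.60), and had 1.09 in NSCL61, 0.56 in NSC-Ceacam1L and 0.28 in NSC. Thus Itgb8 was lowest and Itgb3 highest in the same culture, while Itgav, the alpha chain they share, differed by 0.31 ± 0.20 between NSCL61-Ceacam1sh and NSCL61.

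Itgb4, the hemidesmosome chain that pairs with alpha6 and binds laminin, had -2.06 in NSCL61-Ceacam1sh, -2.53 in NSCL61, -3.83 in NSC-Ceacam1L and -4.08 in NSC, where it was not above background. It was at least 2.94-fold higher in NSCL61 than in NSC. Itgb7, the partner of alpha4 and alphaE, had -0.66 in NSCL61-Ceacam1sh, -4.26 in NSCL61, -2.80 in NSC-Ceacam1L and -5.37 in NSC, where it was not above background. Its difference with the hairpin was 3.60 ± 0.34, and Itga4 and Itgae were higher on the same array. Itgb2, the leukocyte beta chain, had -2.20 in NSCL61-Ceacam1sh, -2.33 in NSCL61, -3.95 in NSC-Ceacam1L and -3.55 in NSC, and was 1.22 ± 0.30 higher in NSCL61 than in NSC.

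**Figure D3:**
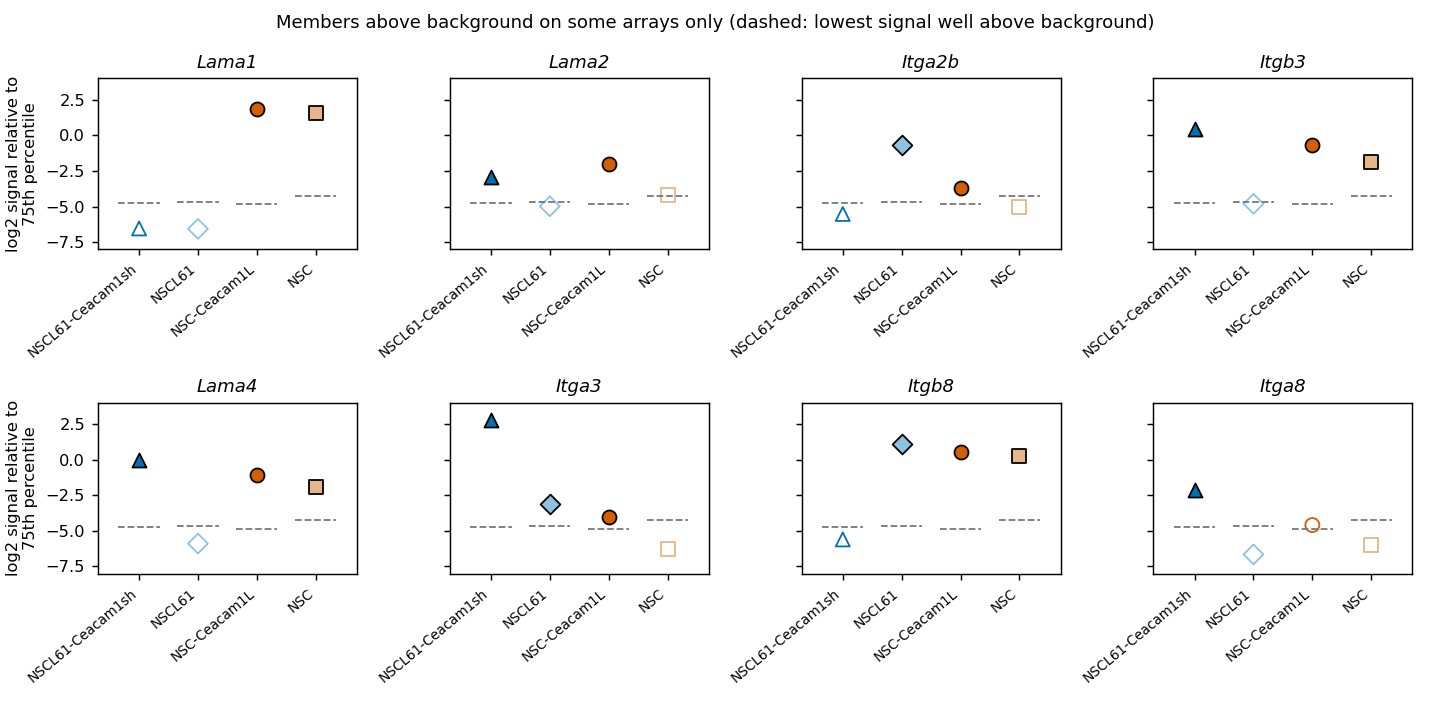
Levels (log2 signal relative to the array's 75th percentile, y axis) of 8 members that were not above background on at least 1 array, with 1 array per group on the x axis. Open symbols were not well above background, and the dashed line marks the lowest signal well above background on that array: Itgb8 is open on NSCL61-Ceacam1sh only, Itgb3 and Lama4 on NSCL61 only, and Lama1 on both NSCL61 arrays.

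Several laminin chains differed little between arrays. Lamc1, the gamma chain of most laminins, had 3.53 in NSCL61-Ceacam1sh, 4.27 in NSCL61, 3.39 in NSC-Ceacam1L and 3.48 in NSC. Lamb2, the beta chain of synaptic laminins, had 1.88 in NSCL61-Ceacam1sh, 2.12 in NSCL61, 2.26 in NSC-Ceacam1L and 1.75 in NSC. Lama5, the alpha chain of laminin-511, had 4.10 in NSCL61-Ceacam1sh, 3.66 in NSCL61, 2.78 in NSC-Ceacam1L and 3.60 in NSC. None of these chains reached 2-fold in any comparison. Neither did Lama3 by its chosen probe, or Lamc3, a gamma chain of the brain surface and retina, which was not above background on NSC. With spike-in scaling, however, Lamc3 had 1.23 in NSC-Ceacam1L minus NSC.

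The other laminin alpha chains were each above background on some arrays only, in different patterns. Lama1 had -6.54 in NSCL61-Ceacam1sh, -6.57 in NSCL61, 1.85 in NSC-Ceacam1L and 1.56 in NSC, and was above background on the NSC-Ceacam1L and NSC arrays only. Lama4 had -0.05 in NSCL61-Ceacam1sh, -5.89 in NSCL61, -1.06 in NSC-Ceacam1L and -1.91 in NSC, and was above background on every array but NSCL61. Lama2 was above background with the hairpin (-2.95) and with Ceacam1L (-2.00) and not in NSCL61 (-4.98) or NSC (-4.18). Lamb1 was above background throughout, at 5.68 in NSCL61-Ceacam1sh, 3.90 in NSCL61, 1.96 in NSC-Ceacam1L and 2.67 in NSC.

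Lists of genes that work with these receptors were counted in the same way. Over all genes evaluated, 23.4% were higher and 24.3% lower with the hairpin, and 14.4% and 14.0% in NSCL61 against NSC. With Ceacam1L these shares were 10.5% and 6.05%, and all of them apply to each list below. Of 20 other basement membrane genes, 17 were evaluated with the hairpin, and 11 were higher and 2 lower, with a median difference of 3.59 beside 0.01 over all genes. The higher ones included the laminin linker Nid1 (at least 260-fold) and Tinagl1 (at least 97.5-fold). They also included the type IV collagen chains Col4a5 (at least 35.3-fold), Col4a1 (4.90 ± 0.06) and Col4a2 (4.76 ± 0.21). Nid1, Tinagl1 and Col4a5 were above background on the hairpin array and not on NSCL61, and among genes above background on all 4 arrays the list's median was 1.95. The 2 lower were the calcium-binding matrix protein Smoc1 (at least 316-fold) and agrin, Agrn (-2.04 ± 0.20), a proteoglycan that binds laminin. In NSCL61 against NSC, 2 of 16 were higher and 7 lower, with a median of -0.50, or -0.14 among genes above background on all 4 arrays. Nid1 was at least 29.6-fold and Col4a5 at least 53.8-fold lower in NSCL61, Fbln2 differed by -6.11 ± 0.20 and Fbln1 by -3.06 ± 0.21, and the 2 higher were Smoc2 (at least 24.7-fold) and Sparc (2.14 ± 0.20). With Ceacam1L, 5 of 17 were higher and 2 lower, with a median of 0.26. Nid1 differed by 2.47 ± 0.20, Smoc2 was at least 4.21-fold higher, and the 2 lower were Ntn4 (-3.24 ± 0.25) and Fbln2 (-1.40 ± 0.20).

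Of 25 non-laminin ligands of integrins, 23 were evaluated with the hairpin, 11 higher and 4 lower (median 0.99). In NSCL61 against NSC, 12 of 22 were higher and 1 lower (median 1.12, or 0.47 among genes above background on all 4 arrays), and with Ceacam1L 5 of 18 were higher and 1 lower (median 0.16). Thrombospondin 1, Thbs1, was higher by at least 540-fold in NSCL61-Ceacam1sh than in NSCL61, and osteopontin, Spp1, had 6.06 in NSCL61-Ceacam1sh and -0.39 in NSCL61. The fibrillar collagen chains Col3a1 and Col1a2, ligands of the alpha1 and alpha2 chains, differed by 5.25 ± 0.29 and 5.14 ± 0.23. The 4 lower with the hairpin were Icam1 (at least 9.05-fold), a ligand of beta2 integrins, Vtn (at least 3.84-fold), which encodes vitronectin, Tgfb2 (-1.82 ± 0.20) and Edil3 (-1.37 ± 0.23). In NSCL61 against NSC, Icam1 was at least 6.48-fold and Spp1 at least 14.7-fold higher, fibronectin, Fn1, the ligand of the alpha5 chain, differed by 3.31 ± 0.20, and the 1 lower was Col1a1 (-1.86 ± 0.36). With Ceacam1L, the matricellular ligand Ccn2 was higher by at least 27.2-fold and Thbs1 by at least 7.14-fold. The 1 lower there was tenascin C, Tnc, a ligand of alpha9, with -1.73 in NSC-Ceacam1L and 0.73 in NSC.

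Laminin receptor genes outside the integrin family, mainly the dystroglycan complex and its glycosylating enzymes, numbered 17. All 17 were evaluated with the hairpin, 1 higher and 8 lower, with a median of -0.88, or -0.50 among genes above background on all 4 arrays. The lower ones included the sarcoglycan Sgcb (-2.43 ± 0.20), the O-mannosyltransferase Pomt2 (-2.22 ± 0.21), dystrophin, Dmd (at least 4.04-fold), and Sgca (at least 2.84-fold). Dystroglycan itself, Dag1, named here after its value was seen, differed by -1.03 ± 0.20. The 1 higher was Sgcd, another sarcoglycan, by at least 1.68-fold. In NSCL61 against NSC, 3 of 16 were higher and 0 lower (median 0.02), namely Utrn (1.48 ± 0.22), Sgce (1.13 ± 0.20) and Sgcb (1.11 ± 0.20). With Ceacam1L, 2 of 17 were higher and 0 lower (median 0.07), namely Sgcd (at least 1.79-fold) and Bcam (1.38 ± 0.28), which encodes a receptor for laminin alpha5. Over all genes evaluated, 23.4% were higher and 24.3% lower with the hairpin, 14.4% higher in NSCL61 against NSC, and 10.5% higher with Ceacam1L.

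Of 32 genes of integrin adhesion complexes and hemidesmosomes, 27 were evaluated with the hairpin, 14 higher and 4 lower (median 1.15). The LIM protein Fhl2 differed by 7.26 ± 0.21, the ILK partner Parva by 3.35 ± 0.20, the tensin Tns2 by 2.75 ± 0.21, zyxin (Zyx) by 2.42 ± 0.20, and the alpha-actinins Actn1 and Actn4 by 2.33 ± 0.20 and 2.24 ± 0.20. The lower ones were Lims2 (-4.45 ± 0.21), Fermt2 (-1.51 ± 0.20), Tns1 (-1.11 ± 0.20) and Lims1 (-1.01 ± 0.20), of which Fermt2 encodes kindlin-2, an integrin activator. In NSCL61 against NSC, 7 of 28 were higher and 1 lower (median 0.31). Plectin, Plec, the cytolinker that binds beta4, differed by 4.07 ± 0.20, the docking protein Bcar1 by 2.58 ± 0.20 and the tetraspanin Cd151 by 1.87 ± 0.20, and the 1 lower was the paxillin relative Tgfb1i1, by at least 33.5-fold. With Ceacam1L, 8 of 29 were higher and 0 lower (median 0.32), led by kindlin-1, Fermt1 (at least 14.2-fold), and Plec (2.77 ± 0.20).

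Of 21 regulators that bind integrins, 19 were evaluated with the hairpin, 5 higher and 2 lower (median -0.20, which turned to 0.22 with median scaling and 0.25 with spike-in scaling). Over all genes evaluated, 23.4% were higher and 24.3% lower with the hairpin. The urokinase receptor Plaur differed by 7.88 ± 0.23, caveolin 1, Cav1, was higher by at least 13.8-fold, and the tetraspanin Cd82 differed by 5.62 ± 0.21. The 2 lower were the tetraspanin Cd81 (-2.03 ± 0.20) and Itfg1 (-1.28 ± 0.20). In NSCL61 against NSC, 1 of 19 was higher, Cd63 (1.60 ± 0.20), and 3 were lower (median 0.42), namely Cav1 (at least 1.69-fold), Apbb1ip (at least 1.55-fold) and Cd82 (-2.53 ± 0.21). With Ceacam1L, 3 of 19 were higher and 0 lower (median 0.00), namely Dab2 (1.86 ± 0.21), Apbb1ip (1.35 ± 0.35) and Cd82 (1.03 ± 0.20).

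**Figure D4:**
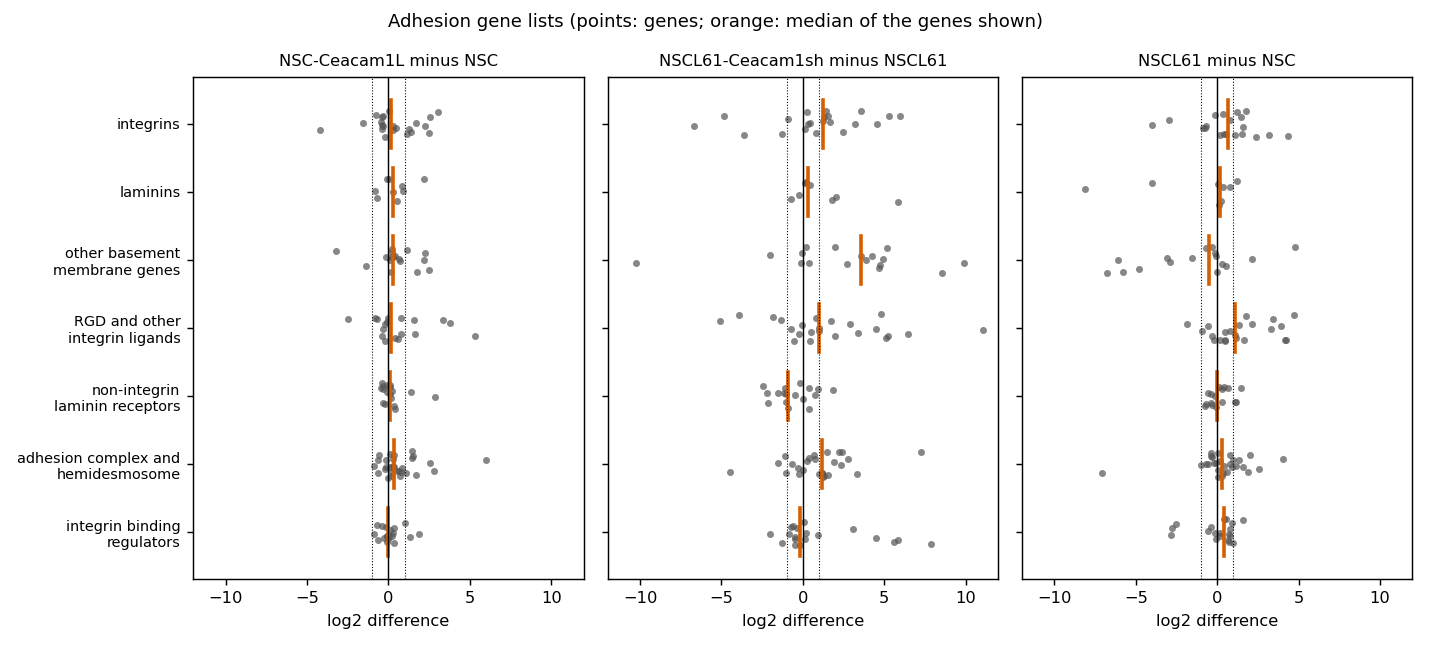
Differences (log2, x axis) of evaluated integrins, laminins and genes of the 5 other adhesion lists in the 3 comparisons. Each point is a gene, the orange bar is the median of the genes shown and dotted lines mark 2-fold: the median of other basement membrane genes is 3.59 with the hairpin (1.95 among genes above background on all 4 arrays) and -0.50 in NSCL61 minus NSC (-0.14 among those).

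Markers of other cell types moved with the same arrays, and their part in the integrin and laminin differences was not tested. For 12 markers of fibroblasts and mural cells, the summed signal relative to the 75th percentile was 41.8 on NSCL61-Ceacam1sh, 8.66 on NSCL61, 31.7 on NSC-Ceacam1L and 8.97 on NSC, with 8, 8, 7 and 6 of them above background. With the hairpin, 6 of 10 evaluated were higher, namely Dcn, Pdgfrb, Col3a1, Col1a2, Col1a1 and Acta2. The 2 lower were Thy1 and Rgs5, against 23.4% higher and 24.3% lower over all genes. With Ceacam1L, 4 of 7 were higher, namely Pdgfrb, Thy1, Acta2 and Tagln, and 0 lower, against 10.5% and 6.05%. Col1a1 and Col1a2 stayed within 2-fold there. These sums thus rest in part on different genes, and Thy1 went opposite ways. For 6 markers of oligodendrocyte precursors the summed signal was 2.29 on NSCL61-Ceacam1sh, 128 on NSCL61, 257 on NSC-Ceacam1L and 233 on NSC. For 6 astrocyte markers it was 1.62 on NSCL61-Ceacam1sh, 670 on NSCL61, 514 on NSC-Ceacam1L and 280 on NSC. Aldoc, with a level of 8.69 on NSC-Ceacam1L and 7.85 on NSC, made up most of those 2 sums. With Ceacam1L, 4 of the 6 were called higher and 0 lower (median 2.65), against 10.5% and 6.05% of all genes. The 4 were Gfap (7.33 ± 0.25), Aqp4, Slc1a2 and Gjb6. With the hairpin, 5 of 5 evaluated were lower (median -6.65), against 24.3%. Of 10 markers of neural stem and radial glial cells, 9 were above background on NSCL61-Ceacam1sh, 9 on NSCL61, 10 on NSC-Ceacam1L and 10 on NSC, with summed signals of 321, 957, 718 and 893. On NSCL61-Ceacam1sh, however, 6 of these 10 (median difference -1.47) were called lower than on NSCL61 and 1 higher, against 24.3% and 23.4% of all genes. The Notch target Hes5 was not above background there, lower by at least 1730-fold, the radial glial genes Fabp7 and Slc1a3 differed by -12.36 ± 0.31 and -8.43 ± 0.26, and Sox9 and Sox2 by -2.06 ± 0.06 and -1.76 ± 0.20. Vim differed by -0.63 ± 0.20 and, with a level of 8.13 on NSCL61-Ceacam1sh, made up most of the sum on that array. For 10 endothelial markers the sum was 12.4 on NSCL61-Ceacam1sh, 20.1 on NSCL61, 9.59 on NSC-Ceacam1L and 12.7 on NSC, and for 9 epithelial markers it lay between 0.342 and 0.822. In such bulk RNA, fewer cells of a type and less RNA per cell cannot be told apart.

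The promoters of Itga3 and Itgb8, at opposite ends of the hairpin comparison, are shown from the RefSeq annotation of GRCm38.p6, a build other than that of the probes, from 250 bases before to 50 after the start. In capitals are TGANTCA, the AP-1 site, and GGGCGG, the GC box.
Itga3, first start, chr11:95076665-95076964, minus strand: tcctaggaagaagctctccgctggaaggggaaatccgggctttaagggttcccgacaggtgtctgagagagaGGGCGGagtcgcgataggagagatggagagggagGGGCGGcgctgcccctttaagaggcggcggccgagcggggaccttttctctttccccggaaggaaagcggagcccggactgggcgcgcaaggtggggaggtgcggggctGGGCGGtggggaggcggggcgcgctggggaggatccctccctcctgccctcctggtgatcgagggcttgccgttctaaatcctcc
Itga3, second start, chr11:95069149-95069448, minus strand: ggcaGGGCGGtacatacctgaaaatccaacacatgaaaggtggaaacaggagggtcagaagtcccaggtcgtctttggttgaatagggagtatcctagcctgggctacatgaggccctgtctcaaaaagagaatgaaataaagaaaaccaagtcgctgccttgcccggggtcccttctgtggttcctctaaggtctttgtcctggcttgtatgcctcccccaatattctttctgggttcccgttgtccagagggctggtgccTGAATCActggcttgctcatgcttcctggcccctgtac
Itgb8, chr12:119238227-119238526, minus strand: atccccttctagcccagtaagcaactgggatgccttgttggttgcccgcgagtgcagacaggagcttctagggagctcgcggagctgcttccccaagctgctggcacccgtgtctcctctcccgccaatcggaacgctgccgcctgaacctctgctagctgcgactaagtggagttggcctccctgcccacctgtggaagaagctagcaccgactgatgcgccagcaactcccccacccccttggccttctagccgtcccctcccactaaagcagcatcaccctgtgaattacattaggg
The table held 26 windows for 23 of the members, and 5 motifs were each searched on both strands, with overlap between motifs allowed. TGANTCA was in 3 of the 26 windows (11.5%), those of Itga3, Itga9 and Itgax, against 7.81% of all 32851 windows. GGGCGG was in 12 (46.2%) against 35.7%, CACCTG, an E-box, in 8 (30.8%) against 20.2%, GGAATG, the TEAD site, in 3 (11.5%) against 14.7%, and TATAAA in 0 against 13.6%. A match is a description of the letters only, and neither motif in capitals occurs in the Itgb8 window.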

How the data were processed

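Total RNA of 4 cultures was hybridised to single-colour Agilent mouse arrays (design 028005, mm9), 1 array per group, with Cy3-labelled RNA made from 0.5 µg, per the labels' protocols. The deposited intensity values are the processed signal of 62976 spots (59305 not controls) and its modelled error, which per the file headers came from the authors' use of protocol GE1_107_Sep09 in Feature Extraction 10.7.3.1; version 9.1 of Agilent Feature Extraction stands in the submitters' processing notes. The deposited log2 table was used as an alternative. Its differences had slopes of 0.9998 to 0.9999 and offsets of 0.01 to 0.04 against those of the scaled signals, and its centring is unknown (column medians 0.03 for NSCL61-Ceacam1sh, 0.00 for NSCL61, -0.20 for NSC-Ceacam1L and 0.25 for NSC).

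For scaling, each signal was divided by its array's 75th percentile (541.4 for NSCL61-Ceacam1sh, 438.8 for NSCL61, 571.1 for NSC-Ceacam1L, 480.0 for NSC), outlier spots (143 to 187 per array) were dropped, 0 spots were saturated, and log2 values were averaged over the spots of each probe. A probe counted as above background where the scanner software said so on at least 50.0% of its spots. Genes were named through accessions (27235 of 55681 probes), symbols (3581) or older symbols (565) in RefSeq tables; other genes were read by their brightest probe. Array number alone limits precision: no replicate, SD or test was available, and the median modelled error of a difference was 0.21. Any member could be named, and of each other list the genes past 2-fold, largest first, up to 6 per comparison, with those counted on the other side. The members and lists were chosen with earlier results of these data known. Calculations used Python 3.11.15 with pandas 2.3.3 and R 4.3.3 with limma 3.58.1 (normexp with an offset of 50, quantile, cyclic loess), and were tested on simulated data. 1 member enters the counts but is not reported here.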

Additional observations from a re-analysis of the deposited data

How the results depend on the processing

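No replicate could be left out, and no paired analysis was possible because each group had 1 array. No called member difference turned its sign under the alternatives. In NSC-Ceacam1L minus NSC, the 10 higher and 2 lower members became 1 and 1 of 32 with normexp (4.84% and 3.42% of all genes). Among genes above background on all 4 arrays they became 2 and 1 of 18, against 4.67% and 4.32%. At 4-fold they became 5 and 1, against 3.91% and 1.85%. The lower count was 1 with the mean of all probes of a gene, against 6.29%, and 5 at 1.5-fold, against 16.8%. In NSCL61-Ceacam1sh minus NSCL61, the 14 higher and 4 lower became 7 and 2 of 18 members above background on all 4 arrays. The shares over all such genes were 20.4% and 18.5%. The higher count was 8 at 4-fold, against 11.6% of all genes. The lower count was 5 with quantile normalization, against 23.8%, and 5 with cyclic loess, against 24.6%. In NSCL61 minus NSC, the 11 higher and 4 lower became 6 and 0 of 18 members above background on all 4 arrays. The shares over all such genes were 9.8% and 9.65%. The higher count was 7 with normexp, against 8.99% of all genes, and 4 at 4-fold, against 6.5%. The lower count was 7 at 1.5-fold, against 21.9%. Spike-in scaling, chosen after seeing the data, moved the median of all genes to 0.25 in NSC-Ceacam1L minus NSC, 0.47 in NSCL61-Ceacam1sh minus NSCL61 and -0.23 in NSCL61 minus NSC; median scaling moved the second to 0.43 and cyclic loess the first to 0.13. List medians shifted by -1.64 to 0.46 over all alternatives. The lowest shift was that of other basement membrane genes with the hairpin, whose median of 3.59 became 1.95 among genes above background on all 4 arrays and 2.69 with normexp. Some near 0 changed sign. For non-integrin laminin receptors these were -0.06 with normexp, -0.11 among genes above background on all 4 arrays and -0.11 with the mean of all probes in NSC-Ceacam1L minus NSC, and -0.03 with median scaling, -0.02 with cyclic loess, -0.06 with normexp, -0.25 with spike-in scaling and -0.09 on all 4 arrays in NSCL61 minus NSC. For non-laminin ligands it was -0.06 on all 4 arrays with Ceacam1L, and for regulators 0.22 with median scaling and 0.25 with spike-in scaling with the hairpin. Fewer genes are evaluated where all 4 arrays must be above background; the cause of the other changes was not tested. Dim probes limit what can be said of members seen on 1 array.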
